A study of Mus musculus with 60 samples.

Results

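The comparison is between mouse embryos made by somatic cell nuclear transfer (NT) from 2 kinds of donor nucleus, taken over 4 later preimplantation stages together (4-cell, 8-cell, morula, blastula). In this procedure the nucleus of a body cell is placed in an oocyte whose own chromosomes were removed, and the oocyte cytoplasm resets the donor genome. NTM embryos received the nuclei of mouse embryonic fibroblasts (MEFs), and NTC embryos received the nuclei of cumulus cells (CCs), the somatic cells that surround the oocyte. Each stage holds 3 NTM and 3 NTC libraries, so that 12 NTM libraries stand against 12 NTC libraries, 24 of the 60 libraries of the series, each made from the poly(A) RNA of 1 embryo or donor cell sample. The members were chosen by their labels (embryo type and stage) and by chromosome. Of 27238 genes in the table, 25848 were matched to an autosome. Of these, 10208 had a mean of at least 0.5 RPKM over the 24 libraries and were tested. RPKM stands for mapped reads scaled to transcript length and to the total reads of the library. This filter used measured values of both groups together, so a gene could pass on the values of 1 group alone. Both NT groups had the BDF1 background (C57BL/6 mothers and DBA2 fathers), both used MII oocyte cytoplasm from adult BDF1 females, and both were activated with strontium, treated with the deacetylase inhibitor Scriptaid and grown in vitro. The MEFs came from mid-gestation BDF1 fetuses and were passaged and starved of serum, whereas the CCs came from the cumulus-oocyte complexes of adult BDF1 females, so that age, culture and sex of the donors could differ together with the cell type. In vivo embryos, from C57BL/6 females mated with DBA2 males, are given for reference only.

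After the first cleavages the mouse embryo degrades the transcripts stored in the oocyte and relies on its own genome. From the 4-cell stage onwards the cells compact, form a morula and set apart the trophectoderm, which makes the placenta, from the inner cell mass. In NT embryos all of these transcripts must be read from a genome that until recently ran the programme of a fibroblast or a cumulus cell, and the question put to the 24 libraries was which autosomal genes still differed with the donor cell once the embryo was past the 2-cell stage.

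Few autosomal genes were called between NTM and NTC embryos across the 4 stages. The calls do not count the genes that differ, since 1446 had an unadjusted p under 0.05 in limma. In simulated data 62% of 4-fold changes were recovered. A 2-fold change of RPKM stays below the size limit of a call, so its low recovery was largely set in advance. The fit (limma on log2(RPKM + 1), with stage as a block) called 22 of 10208 genes, 0.216% of those tested, at a Benjamini-Hochberg adjusted p under 0.05 and a log2 difference of at least 1 in size. Of these, 4 (0.0392%) were higher in NTM embryos, namely Homer2, Rpl39l, Gm11800 and Ube2s, and 18 (0.176%) were lower, led by Khdc1b, Prl7b1, Gm8210 and Pitrm1. The size of the differences was between 1.04 and 2.62 on the log2(RPKM + 1) scale, which understates the change of genes with low values. By annotation 17 of the 22 encode proteins, and they lay on 12 chromosomes. In whole embryos, fewer cells with a transcript and less of it per cell cannot be told apart.

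Complete separation was rarer still. In 3 of the 10208 genes (0.0294%) the 3 NTM values and the 3 NTC values did not overlap, in the same direction, at each of the 4 stages, and all 3 were among the called genes: Homer2 and Gm11800, higher in NTM embryos, and Pitrm1, lower. For the 2 of them that encode proteins the sequence around the annotated starts is given here, so that a reader can place the genes. Homer2 has 2 annotated starts on chromosome 7 and Pitrm1 has 1 on chromosome 13. Each window has 300 bases (RefSeq, GRCm38.p6, gene strand), and capitals mark each GC box (GGGCGG on either strand, overlapping matches counted), a letter run present in 35.7% of the 32851 windows of all genes in the reference table and in 63% of the 9520 windows of tested autosomal genes.
Homer2, chr7:81706876-81707175, minus strand: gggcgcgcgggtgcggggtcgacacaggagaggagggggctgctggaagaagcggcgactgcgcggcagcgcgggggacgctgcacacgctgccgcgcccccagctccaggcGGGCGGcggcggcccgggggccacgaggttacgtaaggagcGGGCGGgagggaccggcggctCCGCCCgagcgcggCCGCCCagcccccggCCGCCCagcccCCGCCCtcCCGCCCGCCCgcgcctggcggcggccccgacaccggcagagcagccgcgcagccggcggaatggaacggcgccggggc
Homer2, chr7:81692916-81693215, minus strand: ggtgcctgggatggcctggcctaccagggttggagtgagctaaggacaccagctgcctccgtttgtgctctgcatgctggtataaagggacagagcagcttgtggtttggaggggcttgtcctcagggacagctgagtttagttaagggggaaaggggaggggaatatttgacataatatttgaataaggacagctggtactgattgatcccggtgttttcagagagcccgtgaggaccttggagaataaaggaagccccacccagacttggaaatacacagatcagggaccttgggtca
Pitrm1, chr13:6547907-6548206, plus strand: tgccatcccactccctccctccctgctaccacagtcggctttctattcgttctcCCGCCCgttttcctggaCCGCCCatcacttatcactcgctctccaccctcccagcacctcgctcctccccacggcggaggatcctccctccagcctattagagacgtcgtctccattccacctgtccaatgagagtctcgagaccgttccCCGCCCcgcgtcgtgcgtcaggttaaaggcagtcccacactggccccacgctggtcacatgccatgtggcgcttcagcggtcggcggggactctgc
The first Homer2 window held 8 GC boxes and 49 CG pairs, the second held 0 and 3, and the Pitrm1 window held 3 and 23, against a median of 7 CG pairs over all windows and of 21 over the windows of tested autosomal genes. Which Homer2 start was used cannot be read from values per gene.

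Homer2, a member of the Homer family of scaffold proteins that bind glutamate receptors and calcium channels, had the lowest p of all autosomal genes. Across the 12 NTM libraries its level was 0.704 RPKM at the lowest, 3.23 at the median and 6.17 at the highest, against 0, 0.402 and 1.35 RPKM in the 12 NTC libraries. In 4-cell embryos the 3 NTM values were 3.18, 6.17 and 4.25 RPKM and the NTC values 0, 0 and 0.525 RPKM. In 8-cell embryos they were 3.28, 3.88 and 3.38 against 0.466, 1.35 and 0.00419 RPKM. The gap was smallest in morulas, with 2.37, 1.8 and 0.704 RPKM in NTM and 0.65, 0.315 and 0.205 RPKM in NTC embryos, and blastulas gave 5.27, 1.96 and 2.89 against 1.05, 0.443 and 0.36 RPKM. The difference was 1.52 ± 0.24 (SE) on the log2(RPKM + 1) scale, a ratio of 2.86 in RPKM + 1 (limma, adjusted p = 0.0038), and all 12 NTM libraries lay above the NTC median. It was called in each of the 24 fits that left out 1 library.

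Before the 4-cell stage Homer2 did not pass the test. In 1-cell embryos the means were 4.95 RPKM (NTM) and 6.29 RPKM (NTC), and in 2-cell embryos 5.56 and 6.09 RPKM, with differences of -0.32 and -0.31 on the log2 scale (limma, adjusted p = 0.512 and 0.94). In NTC embryos the mean then stood at 0.175 RPKM at the 4-cell stage and in NTM embryos at 4.53 RPKM, while in vivo embryos went from 10.8 RPKM at the 2-cell to 0.831 RPKM at the 4-cell stage. Later in vivo means of Homer2 were 0.247 RPKM (8-cell) and 1.02 RPKM (morula), and in vivo blastulas had 0, 0 and 13.5 RPKM, given with no test. The donor cells themselves held little of it, at most 0.121 RPKM in MEFs and 0.00853 RPKM in CCs.

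**Figure D1:**
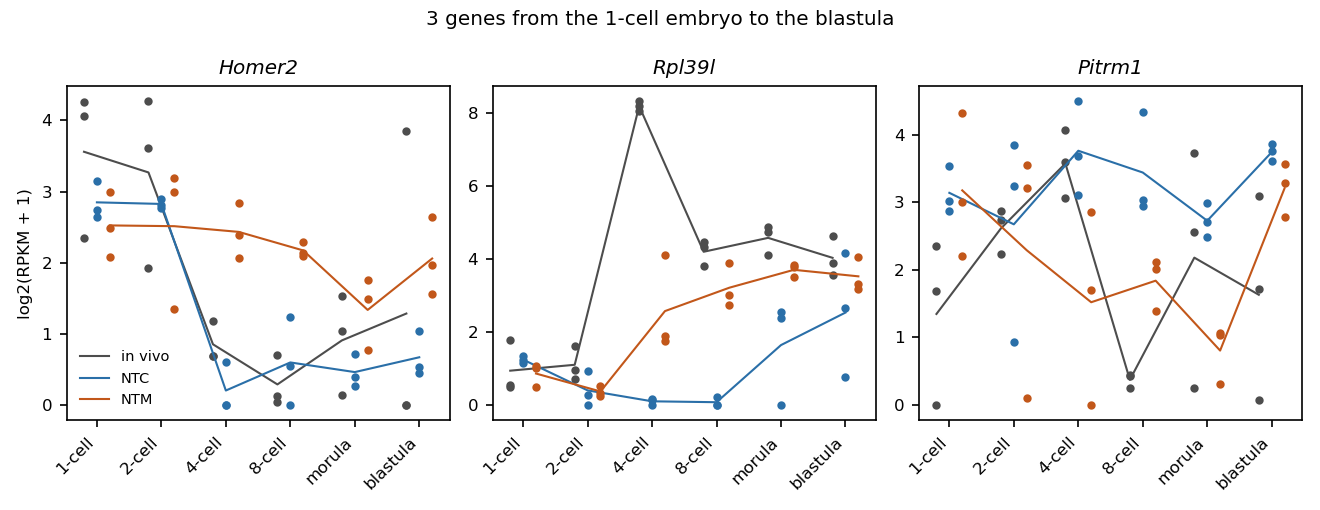
Levels of Homer2, Rpl39l and Pitrm1 as log2(RPKM + 1) from the 1-cell embryo to the blastula, with 1 point per library, 3 per group, and lines through the group means. In the 1-cell and 2-cell panels of Homer2 the NTM and NTC points mix, and from the 4-cell stage every NTM point lies above the NTC points.

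Pitrm1 encodes a peptidase of the mitochondrial matrix that degrades the presequences cut from imported proteins. Its level was 0 RPKM at the lowest, 2.64 at the median and 10.8 at the highest in NTM libraries, against 4.59, 9.42 and 21.6 RPKM in NTC libraries. In morulas the values were 0.246, 1.05 and 1.09 RPKM in NTM and 5.53, 6.98 and 4.59 RPKM in NTC embryos, and in blastulas they came closer, at 10.8, 8.76 and 5.89 against 13.5, 12.6 and 11.2 RPKM. The difference was -1.58 ± 0.30 (SE) on the log2 scale (limma, adjusted p = 0.0239), and it was called in 22 of the 24 fits without 1 library. MEFs and CCs had means of 56.7 and 80.8 RPKM (limma, adjusted p = 0.616).

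Of the other genes higher in NTM embryos, Rpl39l (chromosome 16) is a copy of the ribosomal protein gene Rpl39 best known from the testis. Its NTM values ran from 2.34 through a median of 9.68 to 16.1 RPKM, and its NTC values from 0 through 0.143 to 17 RPKM. The groups were apart at the 4-cell, 8-cell and morula stages, where no NTC library exceeded 4.82 RPKM, and overlapped in blastulas, where 1 NTC library had 17 RPKM. The difference was 2.17 ± 0.38 (SE) on the log2 scale (limma, adjusted p = 0.0179), called in all 24 fits without 1 library. In vivo embryos had a mean of 292 RPKM at the 4-cell stage and 16.2 RPKM in blastulas, so that both NT groups had the lower mean at the 4-cell stage (7.04 RPKM in NTM and 0.073 RPKM in NTC embryos). MEFs had a mean of 2.77 RPKM, and CCs were listed at 0 RPKM.

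Ube2s (chromosome 7) encodes the E2 enzyme that lengthens ubiquitin chains for the anaphase-promoting complex in mitosis. It was abundant in both groups, from 116 through 231 to 500 RPKM in NTM and from 60.8 through 125 to 180 RPKM in NTC libraries, with no overlap in morulas and blastulas. The difference was 1.04 ± 0.22 (SE) on the log2 scale (limma, adjusted p = 0.0312), and it was called in 10 of the 24 fits without 1 library. At the 1-cell stage Ube2s differed the other way, with 0.978 to 1.03 RPKM in NTM against 43.5 to 65.9 RPKM in NTC embryos. Gm11800, a processed pseudogene, had 67.2 to 655 RPKM in NTM and 1.52 to 187 RPKM in NTC libraries (2.40 ± 0.50 (SE) on the log2 scale, limma, adjusted p = 0.0312). Rpl39l and Gm11800 have near-identical copies elsewhere in the genome between which reads can be shared, so their identity is uncertain.

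**Figure D2:**
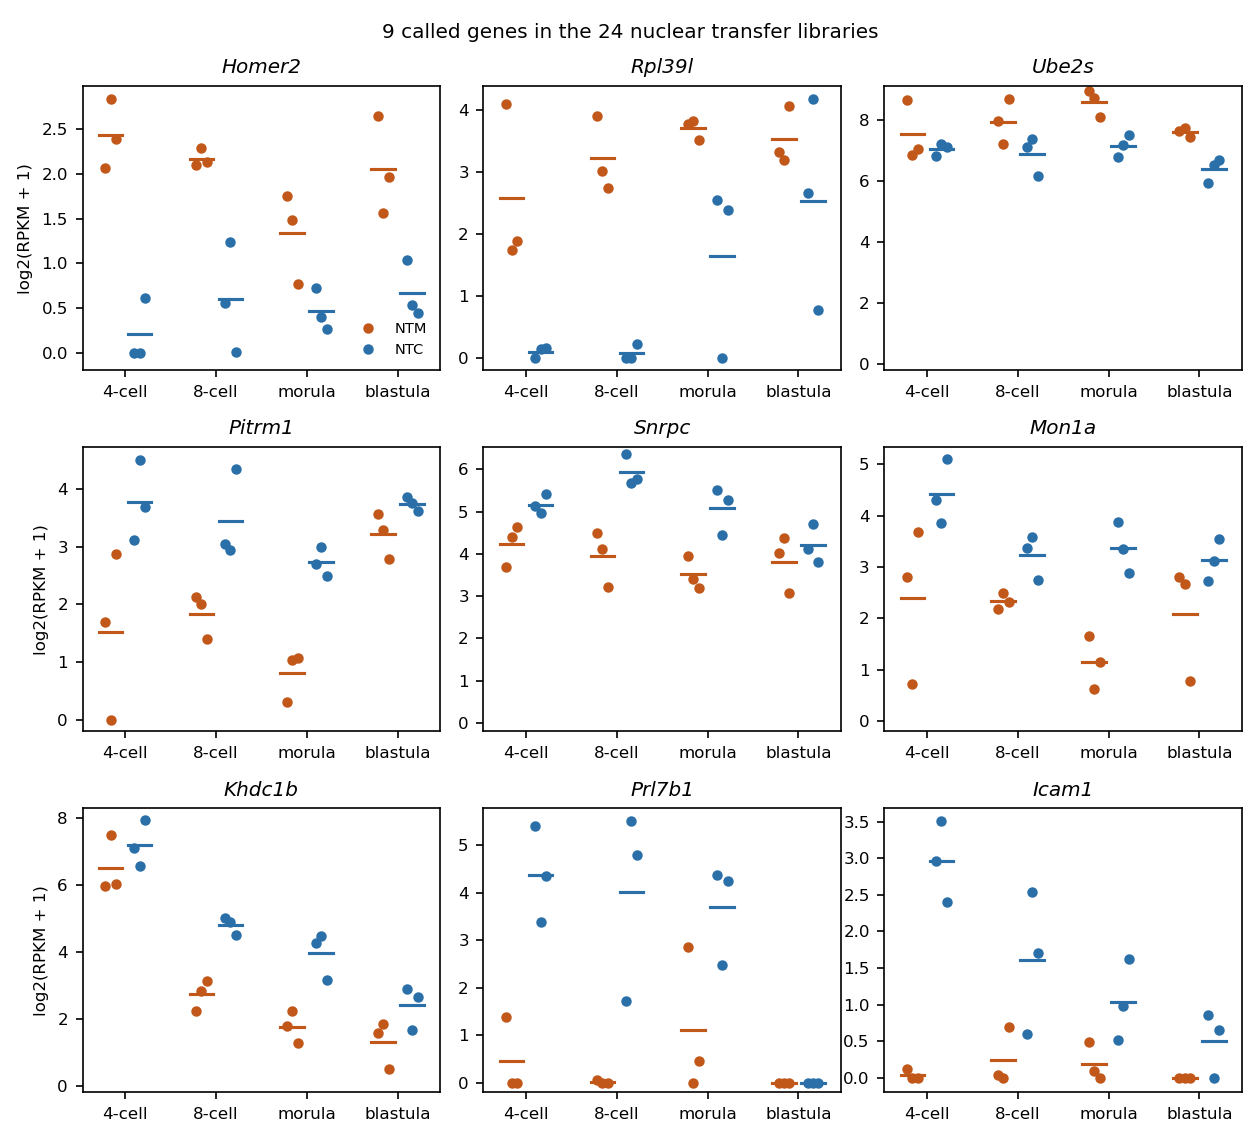
Levels of 9 called genes as log2(RPKM + 1) by stage, with 1 point per library, NTM and NTC side by side, and bars at the means of 3 libraries. Homer2 and Pitrm1 show no overlap at the 4 stages, whereas Prl7b1 is at 0 in all 6 blastulas.

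Among the genes lower in NTM embryos Khdc1b had the lowest p. Khdc1b (chromosome 1), of a KH domain family that is active in oocytes and cleavage embryos, had lower means at each later stage in both groups, from 102 RPKM (NTM) and 158 RPKM (NTC) at the 4-cell to 1.65 and 4.63 RPKM at the blastula stage. Its difference was -1.53 ± 0.28 (SE) on the log2 scale (limma, adjusted p = 0.0239), with no overlap in 8-cell embryos and morulas. At the 1-cell stage the difference had the other sign, 0.99 on the log2 scale (limma, adjusted p = 0.00102), just under the size required for a call. Obox8, of the family named oocyte-specific homeobox, had 0 to 8.74 RPKM in NTM and 0 to 37.6 RPKM in NTC libraries, a difference of -1.74 ± 0.38 (SE) (limma, adjusted p = 0.0419). It was at 0 RPKM in NT embryos of the 1-cell and 2-cell stages. In 4-cell embryos its means were 4.91 RPKM (NTM), 20.6 RPKM (NTC) and 962 RPKM (in vivo, given with no test). Khdc1b and Obox8 belong to families of similar genes, so reads may be shared with their relatives.

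Prl7b1 (chromosome 13) encodes a placental member of the prolactin family. It was listed at 0 RPKM in 8 of 12 NTM libraries, with a highest value of 6.3 RPKM, and had a median of 13.7 RPKM and a highest value of 44.6 RPKM in NTC libraries. All 6 blastulas of both groups and all NT embryos of the 1-cell and 2-cell stages were at 0 RPKM. Over the 4 stages the difference was -2.62 ± 0.49 (SE) on the log2 scale (limma, adjusted p = 0.0239), the largest in size among the called genes. In vivo embryos had means of 0.486, 0, 2.93 and 0 RPKM from the 4-cell to the blastula stage, which are given with no test. Icam1 (chromosome 9), an adhesion molecule bound by leukocyte integrins, was at most 0.615 RPKM in NTM libraries and reached 10.4 RPKM in NTC libraries (-1.41 ± 0.29 (SE), limma, adjusted p = 0.0296). Among the donor cells it stood the other way, at 36.2 RPKM in MEFs and 0.046 RPKM in CCs, a log2 difference of 4.85 (limma, adjusted p = 0.00731).

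Of the other named genes lower in NTM embryos, 4 have roles that can be given. Polr2f (chromosome 15), a subunit shared by the nuclear RNA polymerases, had medians of 11.5 RPKM in NTM and 28.6 RPKM in NTC libraries (-1.11 ± 0.22 (SE), limma, adjusted p = 0.0286). Snrpc (chromosome 17), the C protein of the U1 small nuclear ribonucleoprotein that recognises 5′ splice sites, had medians of 14.8 and 35.7 RPKM, and in 8-cell embryos 8.27 to 21.4 against 50 to 81.5 RPKM (-1.22 ± 0.25 (SE), limma, adjusted p = 0.0291). All 12 NTM libraries were below the NTC median of Snrpc. Gmppa, a subunit of the enzyme that makes GDP-mannose, had medians of 0.3 and 5.33 RPKM (-1.70 ± 0.34 (SE), limma, adjusted p = 0.0286). Mon1a, part of the exchange factor that loads Rab7 on endosomes, had medians of 3.77 and 10.1 RPKM (-1.55 ± 0.32 (SE), limma, adjusted p = 0.0312). Ccdc134, Dynap and the pseudogenes Gm8210 and Gm6091 had log2 differences of -1.77, -2.16, -1.38 and -2.29. Reads of these pseudogenes, and of Gm11544 named below, may likewise be shared with related genes, so their identity is uncertain.

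The remaining 6 called genes were named after their values were seen. They were Cybc1, a chaperone of the NADPH oxidase, with a median of 0 RPKM in NTM and 2.19 RPKM in NTC libraries; Npl, the lyase that breaks down sialic acid, with 9.44 and 29.6 RPKM; Rrbp1, a ribosome-binding protein of the endoplasmic reticulum, with 1.88 and 9.67 RPKM; Obox8; the pseudogene Gm11544; and the noncoding transcript 1810019D21Rik. Their adjusted p in limma lay between 0.0312 and 0.0471. The first gene past the threshold, Pomt2, had an adjusted p of 0.056.

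**Figure D3:**
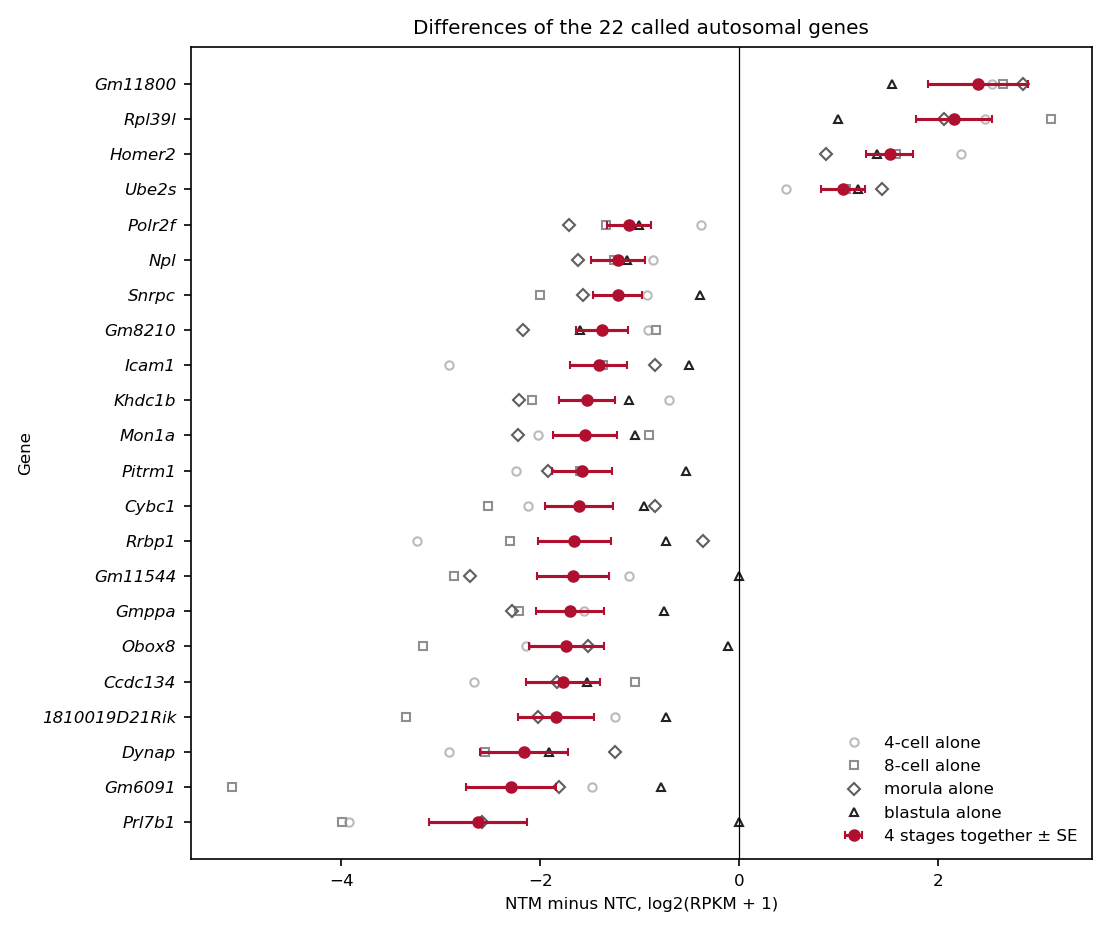
NTM minus NTC differences of the 22 called genes on the log2(RPKM + 1) scale, with filled points for the 4 stages together (bars, SE) and open points for each stage alone. The differences of Prl7b1 and Gm11544 in blastulas are 0, and every other open point lies on the same side of 0 as the filled point of its gene.

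Of the 22 called genes 20 had the same direction at all 4 stages, a pattern that 17.7% of all tested genes showed (3.37% higher and 14.3% lower throughout), and the other 2 had it at 3 stages. In 21 of the 22 the groups did not overlap in one direction at 2 or more stages (7.64% of all tested genes), and in 9 at 3 or more (0.549%). These counts describe genes chosen by their difference over the same libraries, a choice that favours a shared direction and separation, so they are no separate evidence. No called gene passed the test of a difference between the stages at an adjusted p under 0.05 (limma interaction term). Of the 22, 6 had an unadjusted p under 0.05 in it, a larger share than the 9.07% of all tested genes.

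Higher genes were too few to reach 10, and the next 6 by p did not pass. Spry2, an inhibitor of receptor tyrosine kinase signalling, had medians of 2.8 RPKM in NTM and 0.94 RPKM in NTC libraries (0.96 ± 0.22 (SE), limma, adjusted p = 0.0628). Hmga2, a chromatin protein of embryonic cells, had 51.6 and 15.4 RPKM (1.51 ± 0.35 (SE), adjusted p = 0.066 in limma). Whamm, which promotes actin assembly, the proteoglycan Sdc4, the deubiquitinase Otud1 and the pseudogene Gm11688 had adjusted p between 0.0672 and 0.0873 in limma.

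The stages did not contribute alike to the number of calls. In a fit of the 8 groups, 123 genes were called between NTM and NTC 4-cell embryos (26 higher, 0.255%, and 97 lower, 0.95%) and 44 between 8-cell embryos (13 higher, 0.127%, and 31 lower, 0.304%). No gene was called between morulas or between blastulas in limma, where 924 (9.05%) and 246 (2.41%) had an unadjusted p under 0.05. Leaving out single libraries gave 82 to 351 genes at the 4-cell stage (190 without NTC replicate 1, 351 without NTM replicate 3) and 12 to 168 at the 8-cell stage (12, 19 and 15 without NTM replicates 1, 2 and 3, and 78 and 168 without NTC replicates 1 and 2). The interaction test found 7 autosomal genes whose difference varied with the stage, 0.0686% of those tested. In 4 of them the NTM values lay below the NTC values at the 4-cell stage and mixed with them in blastulas. They were the pseudogene 2210409E12Rik, which had 0 to 0.664 RPKM in NTM and 15.8 to 61 RPKM in NTC 4-cell embryos, Gm10436 (0.372 to 0.811 against 29.7 to 41.9 RPKM), the noncoding B020004C17Rik (0.289 to 8.55 against 27.1 to 69.3 RPKM) and Nab1, a corepressor of EGR factors (0.0265 to 2.48 against 7.33 to 36.8 RPKM; chosen after its values were seen). 1500009L16Rik was apart at the 8-cell stage, with 40.7 ± 18.5 RPKM (SD, n = 3) in NTM and 0.813 ± 1.33 RPKM (SD, n = 3) in NTC embryos.

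A general shift accompanied these calls. The median difference of all tested autosomal genes was -0.18 on the log2 scale, with 31.3% of genes positive, and by stage it was -0.15, -0.18, -0.31 and 0 from the 4-cell to the blastula stage. At an unadjusted p under 0.05, 234 genes (2.29%) were higher and 1212 (11.9%) lower in NTM embryos, a share of 16.2% higher. Scaling the libraries by median ratios moved the median to -0.05 and that share to 41.2%, and gave 30 called genes, 13 higher and 17 lower, of which 19 were among the 22. Scaling to the summed values of nuclear genes gave 25 called genes, 8 of them higher, and a share of 29.4%. The sign of each of the 22 genes held under both. NTM libraries listed fewer genes above 0, between 8997 and 13568 with a median of 11163, against 10824 to 13314 with a median of 11885 in NTC libraries (exact permutation test within stages, two-sided, p = 0.0298, adjusted over 4 measures p = 0.0595). Their mitochondrial share of reads was 20.4 to 57%, against 28.1 to 45% (exact permutation p = 0.161), and their depth 5758128 to 25632920 reads on genes, against 9543800 to 26281516 (exact permutation p = 0.626). The part of these measures in the shift was not tested.

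The libraries also differed in Y-linked transcripts. Summed over Ddx3y, Eif2s3y, Kdm5d and Uty, 5 NTM libraries (2 of the 4-cell stage, 2 of the 8-cell stage and 1 morula) had 20.7 to 52.3 RPKM, while the other 7 had at most 0.0658 and all NTC libraries at most 0.0674 RPKM, about what 3 reads on a transcript of 2000 nt give (0.0571 to 0.26 RPKM). Of the 3 MEF libraries 2 had Y-linked reads. Without those 5 libraries 0 autosomal genes were called in limma, with 1302 at an unadjusted p under 0.05, and Homer2 then had a difference of 1.43 (adjusted p = 0.0905), Rpl39l 1.70 (0.138), Pitrm1 -1.71 (0.0921) and Prl7b1 -2.49 (0.126). In that fit NTM has 1 library among 4-cell and 1 among 8-cell embryos. All 22 genes kept their sign. The part of embryo sex in the calls was not tested. Xist, the RNA that silences 1 X chromosome in female cells, ranged from 0 through 2.87 to 17.4 RPKM in NTM and from 0 through 1.55 to 8.55 RPKM in NTC libraries. In the 5 NTM libraries with Y-linked reads Xist had 0 and 1.27 RPKM (4-cell), 3.55 and 7.11 RPKM (8-cell) and 0.224 RPKM (morula). Xist and Y-linked reads thus occurred in the same libraries. Of 344 X-linked genes tested 3 were called, all lower in NTM embryos, and they are not counted above.

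The count of called genes moved with single libraries. Leaving out 1 of the 24 gave 2 to 46 genes. The count was 38 without NTM 4-cell replicate 3 and 46 without NTM blastula replicate 2. It was 2 without NTC 4-cell replicate 3 or NTM 8-cell replicate 3, 6 without NTM blastula replicate 3, 7 without NTM 8-cell replicate 1, NTM morula replicate 2 or NTC 8-cell replicate 1, 8 without NTM 4-cell replicate 1 or NTC morula replicate 1, and 10 to 13 without NTC morula replicates 2 and 3, NTC 4-cell replicate 1, NTM 4-cell replicate 2 or NTM morula replicate 3. Homer2 and Rpl39l were called in every one of these fits, Khdc1b, Prl7b1 and Pitrm1 in 22 and Npl in 4. Without the 8-cell or the morula stage no gene was called, without the 4-cell stage 6 were, and without the blastula stage 47, of which 18 were among the 22.

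**Figure D4:**
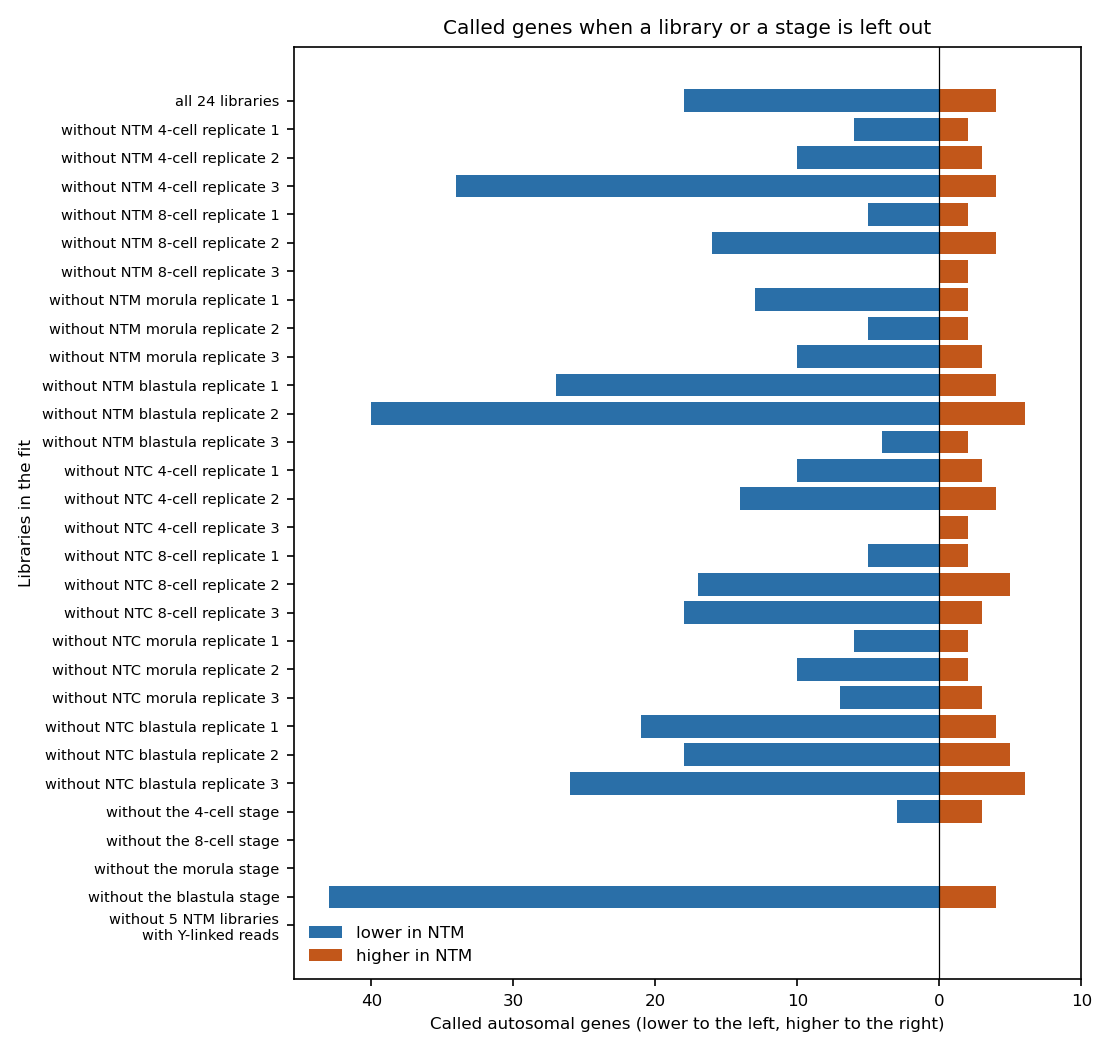
Number of called autosomal genes with all 24 libraries and with 1 library, 1 stage or the 5 libraries with Y-linked reads left out, those lower in NTM embryos to the left of 0 and those higher to the right. The total runs from 0 to 47 against 22 with all libraries.

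The identity of the embryos was checked on marker genes. Of 9 genes of the embryo after the 4-cell stage, among them Pou5f1, Nanog and Cdx2, 8 had a median above 1 RPKM in NTM and 7 in NTC libraries. The exception in NTM was Sox2, at a median of 0 RPKM in both groups. In NTC libraries Cdx2 was also below, at a median of 0.0187 RPKM. Summed, the 9 genes gave 5.2 to 851 RPKM in NTM, 13.1 to 842 in NTC and 134 to 208 RPKM in CCs, ranges that overlap. The sum in CCs came from Krt8 (26 to 82 RPKM), Krt18 (104 to 116) and Gata6 (3.54 to 12.7), whereas Sox2, Nanog, Cdx2 and Tead4 were at 0 there. Fibroblast markers summed to 8752 to 11500 RPKM in MEFs, to 0 to 22.3 RPKM in NTM and to 0 to 0.364 RPKM in NTC libraries. Of these 10 markers Col3a1, Pdgfrb and Lum were at 0 in all NTM libraries, and Dcn, a matrix proteoglycan, was highest at 19.4 RPKM (1.00 ± 0.43 (SE) on the log2 scale, limma, adjusted p = 0.279). The part of fibroblast transcripts in the called genes was not tested. Cumulus markers summed to at most 1.27 RPKM in NTM and 1.81 RPKM in NTC libraries, with 8 and 6 of 10 at 0 throughout. In CCs Inha reached 191 to 319 RPKM, whereas Has2, Cyp19a1 and Lhcgr were at 0, and Ptx3 was lower in value than in MEFs (0.436 to 14.3 against 406 to 1003 RPKM). Summed, the cumulus markers gave 321 to 592 RPKM in CCs and 515 to 1202 RPKM in MEFs, ranges that overlap. The 6 oocyte markers summed to 0.366 to 261 RPKM in NTM libraries (median 12.4) and 2.54 to 99.3 RPKM in NTC libraries (median 23.1). In donor cells they summed to at most 2.52 RPKM (MEFs) and 3.29 RPKM (CCs). Zp3 reached 157 RPKM in NTM and 21 RPKM in NTC libraries. The part of oocyte transcripts in the called genes was not tested.

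Between MEFs and CCs 732 of 11513 autosomal genes were called (6.36%), 466 higher in MEFs (406, 371 and 466 in all without MEF replicates 1, 2 and 3). Of these, 423 were tested in the embryos, where 220 had the same sign and 1, Icam1, was called, with the opposite sign, beside 0.216% called among all tested genes. The 231 genes called higher in MEFs had a median embryo difference of -0.20 and the 192 called lower one of -0.28, beside -0.18 for all genes. Of the 22 genes called in embryos 15 were tested in the donor cells, and 7 had the same sign there, beside 50.8% of all genes tested in both. Across the 8115 genes tested in both, Pearson's r was 0.0486 and Spearman's rho 0.052, as a description over genes that are not independent. At the 1-cell stage 2064 of 10343 genes were called between NTM and NTC (20%; 1279 and 1153 without NTC replicates 2 and 3), and 12 of the 22 were tested, 5 of them with the same sign (53.8% of all genes tested in both). Called there among the 22 were Snrpc, in the same direction, and Ube2s, in the opposite one. At the 2-cell stage no gene was called in limma (740, 6.66%, at an unadjusted p under 0.05; 38 called without NTM replicate 1), and 9 of 14 tested had the same sign (56.4% of all genes tested in both).

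Gene lists drawn up by hand were described by their counts and medians, beside the median of -0.18 for all tested genes. None of the 23 lists held a called gene, beside 0.216% called over all tested genes. Among genes of embryonic cell identity, 13 of 18 tested genes of the pluripotency and epiblast list had positive differences, beside 31.3% of all tested genes. The list's median of 0.32 stayed positive under all 39 alternatives of the fit over the 4 stages. By stage the list's median was 0.37, 0.93, -0.69 and 0.45 from the 4-cell to the blastula stage, so that it was negative in morulas, where the median of all genes was -0.31. Its lowest p were those of Klf4 (1.20 ± 0.34 (SE), limma, adjusted p = 0.122) and Tbx3 (1.44 ± 0.42 (SE), limma, adjusted p = 0.128), transcription factors that sustain naive pluripotency. The 16 trophectoderm genes had a median of -0.03, although Cdx2, the factor that specifies trophectoderm, stood at 1.52 ± 0.44 (SE) (limma, adjusted p = 0.125), with medians of 8.98 RPKM in NTM and 0.0187 RPKM in NTC libraries. The 8 primitive endoderm genes had a median of -0.26 and included Gata6 at 0.85 and Gata4 at -0.90. The 22 genes of compaction and cavitation had a median of -0.13.

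Lists of imprinted genes and of chromatin factors had medians between -0.39 and 0.03. The 21 tested canonical imprinted genes had a median of -0.23, with Blcap at -0.96 and Zrsr1 at -0.86 (limma, adjusted p = 0.205 and 0.312). The 11 genes whose imprint rests on H3K27me3 had a median of 0.03, whose sign changed under 17 of 39 alternatives. Epas1, a hypoxia-inducible factor, had the lowest p there, at 1.19 ± 0.38 (SE) (limma, adjusted p = 0.162). DNA methylation factors (17 tested) had a median of 0.02, whose sign changed under 23 of 39 alternatives. In this list 4 genes had an unadjusted p under 0.05, all lower, beside 11.9% lower and 2.29% higher over all tested genes. Among the 4 were Mbd2, which reads methylated DNA (-1.03 ± 0.27 (SE), limma, adjusted p = 0.0926), and Zfp57 (-1.04), which guards imprints. Histone methylation factors (25 tested) had a median of -0.11 and histone acetylation factors (22 tested) one of -0.39, with the deacetylases Sirt6 at -0.95 and Sirt7 at -1.12.

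For the stage-specific and metabolic lists, the counts of genes lower at an unadjusted p under 0.05 stand beside 11.9% of all tested genes. Among 20 tested genes of the 2-cell programme of genome activation the median was -0.42, and Usp17lb stood at -2.13 ± 0.50 (SE) (limma, adjusted p = 0.067). The 22 maternal oocyte genes had a median of -0.24. Glycolysis and pyruvate genes (19 tested, 6 lower) had a median of -0.51, led by Gpi1 at -0.97. Cholesterol synthesis (22 tested, 5 lower) had a median of -0.45. Of its genes 21 of 22 were negative, among them Sqle at -0.69, whereas 31.3% of all tested genes were positive. Heat shock and endoplasmic reticulum stress genes (25 tested, 6 lower) had a median of -0.36, with the chaperone Calr at -0.99. The nuclear genes of the respiratory chain (69 tested, 8 lower) had a median of -0.17, with Cyc1, the cytochrome c1 subunit, at -0.90. None of these genes passed the test over all genes. At the 4-cell stage the medians of glycolysis (0.06), heat shock (0.12) and respiratory chain genes (0.08) were positive, beside -0.15 for all genes. In blastulas those of cholesterol synthesis (0.22) and maternal oocyte genes (0.02) were positive, beside 0 for all genes. At their other stages the medians of these lists were negative.

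Cytosolic ribosomal proteins (74 tested) had a median of -0.05, cell cycle genes (44) -0.21, glutathione and redox genes (35) -0.21, p53 and apoptosis genes (22) -0.16, growth factor signalling (22) -0.12 and interferon and innate immunity (9) -0.29. Of the cumulus and granulosa list 2 of 20 genes were tested, with a median of 0.58, and of the fibroblast and mesenchyme list 6 of 25, with a median of -0.32. Median-ratio scaling turned the sign of the median for trophectoderm (0.13), ribosomal proteins (0.13) and histone methylation (0.05).

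**Figure D5:**
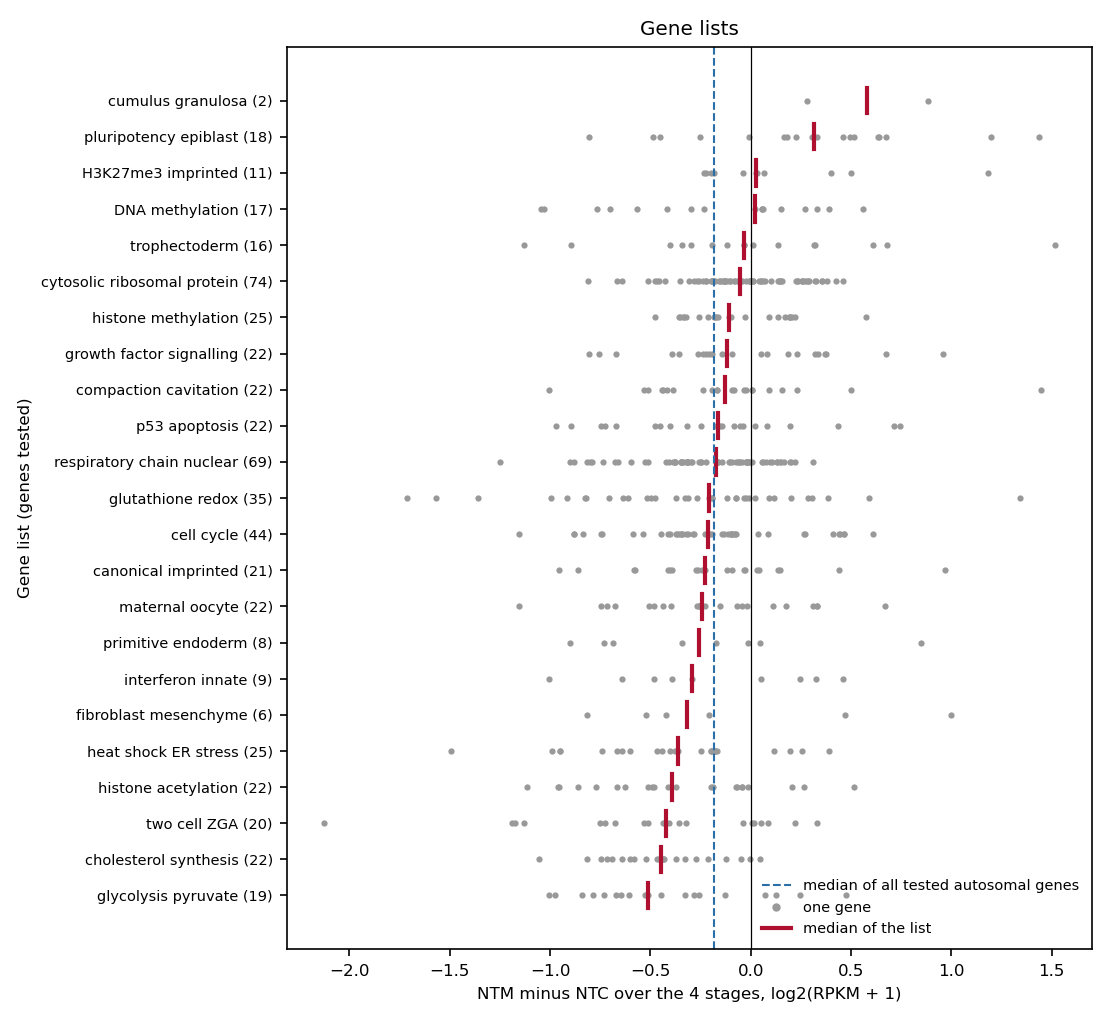
NTM minus NTC differences of the tested genes of each list on the log2(RPKM + 1) scale, with 1 grey point per gene, a red bar at the list's median and a dashed line at the median of all tested autosomal genes. The median of the pluripotency list lies to the right of the dashed line and those of the glycolysis and cholesterol lists to its left, and no point is a called gene.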

How the data were processed

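Single embryos and donor cell samples were lysed, their poly(A) RNA was amplified by PCR without molecular identifiers, and paired-end reads were sequenced. The authors aligned the reads with TopHat and Bowtie2, counted them per gene with HTSeq and deposited RPKM values, 1 table for the whole series. The submitters' processing notes instead name Bowtie 0.12.2 and mm8, so the build behind the RPKM values is not settled, and the only coordinates printed are those of the RefSeq promoter windows (GRCm38.p6). Symbols and chromosomes were taken from GENCODE M21 by Ensembl ID (182 IDs unmatched).

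Genes with a mean of at least 0.5 RPKM over the 24 libraries were fitted with limma 3.58.1 (R 4.3.3, trend) on log2(RPKM + 1), with stage as a block, over 10608 genes, and p-values were adjusted over all of them. A call needs an adjusted p under 0.05 and a difference of at least 1. Named are the 12 called genes with the lowest adjusted p in each direction, the next by p up to 10 where fewer were called, 4 genes of the interaction test and up to 3 per list. The members and the 23 lists were chosen with earlier results of these data known. Reads on genes were derived from the steps between low RPKM values. The paper describes the 3 samples of a group as biological replicates. The labels tie no number to an animal, and p-values measure the spread between these libraries. In simulated data of this design with 10608 genes and 50 genes per fold, 10% of 2-fold, 62% of 4-fold and 88% of 16-fold changes were recovered, with 3 false calls. A 2-fold change of RPKM is less than 1 on the log2(RPKM + 1) scale, so the size limit of a call kept the 2-fold share low. The changes were placed only in genes with a mean log2(RPKM + 1) above 1, with the same fold at each stage and independent normal noise. Recovery among genes with lower values, or with changes that vary by stage, is not given by these shares. Alternatives covered scaling, filters, pseudocount, weights and libraries left out.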

Additional observations from a re-analysis of the deposited data

Results flagged for a closer look

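The difference between NTM and NTC embryos varied with the stage for 7 autosomal genes (limma interaction term of embryo type and stage). The adjusted p was 0.0286 for 2210409E12Rik and 0.0286 for 1500009L16Rik, 0.0337 for Gm10436, 0.0427 for B020004C17Rik and 0.0427 for Nab1, 0.0445 for Zfp534 and 0.0449 for Gsto1. Nab1, Zfp534 and Gsto1 were chosen after their values were seen. From the 4-cell to the blastula stage the differences of 2210409E12Rik were -4.47, -0.82, -0.44 and 0.53 on the log2(RPKM + 1) scale, those of 1500009L16Rik 0.34, 4.67, 0.18 and 0.56, those of Gm10436 -4.53, -0.50, 0.07 and -0.06, and those of B020004C17Rik -3.96, -3.99, -0.45 and 0.54. Nab1 had -3.54, 1.51, 1.04 and 0.02, Zfp534 -2.37, 3.31, -0.23 and 1.34, and Gsto1, a glutathione transferase, 0.98, 4.32, -0.85 and 0.93. In each of the 7 the largest difference in size lay at the 4-cell or the 8-cell stage. Without NTC blastula replicate 3 or without NTM blastula replicate 3 no gene passed this test (836 and 1122 at an unadjusted p under 0.05).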

How the results depend on the processing

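Each of the 22 called genes kept its sign under every alternative in which it was tested, while their number moved. It was 1 with no filter on low values, 34 at a mean of at least 5 RPKM, 101 in one fit over all 20 groups, 70 with array weights, 6 without the 4-cell stage, 0 without the 8-cell stage, 0 without the morula stage and 47 without the blastula stage. Chosen after seeing the data, leaving out the 5 NTM libraries with Y-linked reads gave 0 and leaving out the 4-cell and 8-cell stages together gave 0 (886 at an unadjusted p under 0.05). Single libraries left out gave 2 to 46. Deviations of same-numbered libraries correlated at -0.0437 to 0.135, with 1 of 12 pairs above 0.1. The 24 pairs of other numbers lay between -0.0788 and 0.0787, with 0 above 0.1. In blastulas the same-numbered pairs had 0.135, 0.0735 and 0.083, and the other pairs -0.0788 to -0.0137. Whether the numbers pair the libraries is therefore not settled, and the fit with the replicate block called 2 genes. The 7 genes of the interaction test became 16 with no filter, 12 with scaling to nuclear genes, 129 without the 5 libraries with Y-linked reads (NTM then has 1 library among 4-cell and 1 among 8-cell embryos, each assumed to vary like the other groups), 5 with the replicate block, and 0 to 18 with a library left out, the highest without 1 of NTC 4-cell replicates 1 and 2 (18 and 13) or NTM 4-cell replicates 1 and 2 (18 and 16), and at most 4 without NTC blastula replicates 1 to 3, NTC morula replicates 1 and 3, NTM 4-cell replicate 3, NTM 8-cell replicates 1 to 3, NTM blastula replicates 2 and 3 or NTM morula replicate 3. At the 8-cell stage a pseudocount of 0.1 gave 98 and median-ratio scaling 68 genes, and in blastulas the latter gave 1. With a library left out the counts were 82 to 351 (4-cell), 12 to 168 (8-cell; 72 and 79 without NTM 4-cell replicates 1 and 2), 0 to 10 (morula; 10 without NTM blastula replicate 3), 0 to 5 (blastula; 5 without NTM blastula replicate 1), 371 to 681 (donor cells), 1153 to 2432 (1-cell) and 0 to 38 (2-cell). Causes were not tested. Depth limits low genes: 3 reads on 2000 nt are 0.0571 to 0.26 RPKM.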
